A study of Rattus norvegicus with 5 samples.

Results

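Genes of lung macrophages and their relatives were followed on the arrays: the receptors Cd14, Fcgr2b and Fcer1g, the tyrosine kinase Fgr and the secreted protein osteopontin, Spp1. Every probe set to which the platform annotation gives a listed gene as its only symbol was taken. This gave 5 probe sets for 4 of the 5 listed genes, out of 4736 named genes in all. Cd14 had 2 probe sets and Fcgr2b, Fgr and Spp1 had 1 each. No probe set in the annotation used here has Fcer1g as its only symbol, so that gene was not analysed here. The genes were chosen with earlier results of these arrays known, and their values against the control arrays are therefore given as a description, without a test.

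The study measured rat lung RNA on 5 one-colour arrays after EHC-93, an urban particulate matter preparation, was instilled into the trachea. Equal amounts of RNA were pooled for each array. Lungs taken 2, 4 and 6 h after the particles made up the early array, those of 15, 18 and 21 h the intermediate one, and those of 24, 32 and 40 h the late one. The sham array held RNA pooled from 2, 15 and 24 h after saline instillation, and the untreated array a pool from 3 rats without instillation. The labels state no strain, age or dose, and no number of rats for the instilled pools, and the early, intermediate and late times had no saline pools of their own. With 1 array per group no difference between arrays has a replicate check, and the number of arrays limits the precision. In whole lung RNA, a change in the number of macrophages and a change in RNA per macrophage cannot be told apart.

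Macrophages carry receptors that recognise microbes, particles and antibody complexes. Cd14 binds bacterial lipopolysaccharide and passes it to Tlr4. Fcgr2b is the inhibitory receptor for the constant part of IgG and is present on B cells as well as myeloid cells, while Fcer1g is the signalling chain that activating Fc receptors share. Fgr is a Src family kinase of myeloid cells that acts beneath integrins and Fc receptors. Osteopontin is an adhesive phosphoprotein that binds integrins and Cd44 and is secreted by activated macrophages, among other cells.

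Promoter windows of 300 bases, from 250 before to 50 after the annotated gene start, were found in RefSeq (rat assembly GRCr8) for 3 of the 4 measured genes. They are shown 5′ to 3′ on the strand of the gene, with capitals marking matches to GAGGAA, a core motif of the myeloid transcription factor PU.1, searched on both strands. The windows are chr18:28611109-28611408 on the minus strand for Cd14, chr5:150473547-150473846 on the plus strand for Fgr and chr14:5619755-5620054 on the minus strand for Spp1.
Cd14: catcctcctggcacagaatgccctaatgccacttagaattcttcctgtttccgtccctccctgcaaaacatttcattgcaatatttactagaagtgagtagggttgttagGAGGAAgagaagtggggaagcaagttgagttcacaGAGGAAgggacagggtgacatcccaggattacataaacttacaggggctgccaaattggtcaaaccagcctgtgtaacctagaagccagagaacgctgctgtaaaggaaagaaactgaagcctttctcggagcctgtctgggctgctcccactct
Fgr: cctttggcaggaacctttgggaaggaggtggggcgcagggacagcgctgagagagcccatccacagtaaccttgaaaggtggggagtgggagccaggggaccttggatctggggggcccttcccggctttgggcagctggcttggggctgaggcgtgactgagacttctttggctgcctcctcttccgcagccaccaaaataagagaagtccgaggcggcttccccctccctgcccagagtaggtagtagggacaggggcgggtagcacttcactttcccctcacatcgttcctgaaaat
Spp1: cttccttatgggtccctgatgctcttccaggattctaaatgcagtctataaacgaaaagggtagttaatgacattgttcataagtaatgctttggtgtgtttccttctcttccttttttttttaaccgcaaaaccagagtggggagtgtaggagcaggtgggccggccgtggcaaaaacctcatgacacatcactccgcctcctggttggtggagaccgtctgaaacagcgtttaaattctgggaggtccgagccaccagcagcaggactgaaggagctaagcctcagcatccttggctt
The Cd14 window held 2 matches, starting at positions -140 and -105 from the gene start (there is no position 0), and the Fgr and Spp1 windows held 0. Of 27457 rat promoter windows of this length, 27.5% hold at least 1 match. The AP-1 motif TGANTCA, also searched on both strands, was in 0 of the 3 windows and in 7.33% of all windows. A match is a description of the letters and not evidence of binding.

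The deposited intensities were scaled here to equal array medians (factors from 0.931 to 1.07), and values under a floor of 172.53, the 40th percentile of all scaled values, were set to the floor before folds were taken. A gene is called higher or lower on an exposed array if it differed from the sham and from the untreated array by at least 2-fold in the same direction. By this rule 93 of 3667 genes above the floor on at least 1 array were higher on the early array and 11 lower, 32 were higher on the intermediate array and 8 lower, and 22 were higher on the late array and 38 lower. Higher genes made up 89.4%, 80% and 36.7% of these calls in that order of arrays, against 76.9%, 65.8% and 26.8% with arrays scaled to their 75th percentile and 81.4%, 60% and 25% with values as deposited. Below, 3 values of exposed arrays follow the order early, intermediate and late. The ratio of 5′ to 3′ signal, a measure of how complete the copied RNA was, was highest on the early and lowest on the intermediate array: for beta-actin it was 43.1% and 9.07% there, against 14.7% to 24.4% on the other 3 arrays, and for GAPDH 67.2% and 23.6%, against 25.4% to 39.1%. All 10 lung tissue markers were above the floor on each array. The surfactant protein gene Sftpc, named after its values were seen, read 48080, 71970 and 67230 at early, intermediate and late times, against 55180 after sham instillation and 53590 in untreated lung. The 10 markers did not share this order. Ager, also named after its values were seen, read 30010, 26320 and 26820, against 28270 (sham) and 25950 (untreated).

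Among the 4 measured genes, Cd14 was called higher on the early array, Fcgr2b and Spp1 on the late array, and Fgr on no array. This made 1 of 4 on the early array, where 2.54% of all genes were called higher, 0 of 4 on the intermediate array, where 0.873% were, and 2 of 4 on the late array, where 0.600% were. None of the 4 was called lower, against 0.300%, 0.218% and 1.04% of all genes. These counts follow from how the genes were chosen and show nothing about them as a group. The same shares of all genes are the background for the lists below, where a count of 0 in 3 to 13 genes is close to them.

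**Figure D1:**
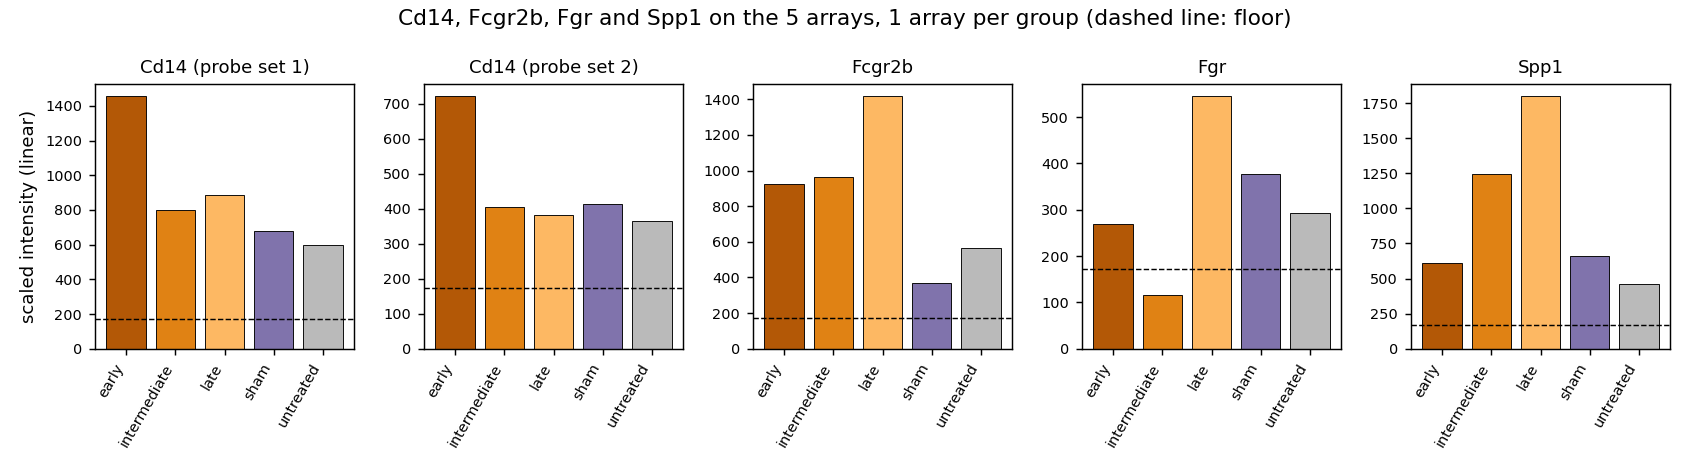
Scaled intensity (linear axis from 0) of the 5 probe sets on the early, intermediate, late, sham and untreated arrays, 1 bar per array, with the floor as a dashed line. Both Cd14 probe sets are highest on the early array, Fcgr2b, Fgr and Spp1 are highest on the late array, and Fgr lies under the floor on the intermediate array.

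Cd14, the lipopolysaccharide co-receptor, was highest in the first hours. Its brighter probe set read 1455 early, 798 at intermediate times and 885 late, against 681 after sham instillation and 600 in untreated lung. The early array thus stood apart, at 2.14-fold over sham and 2.42-fold over untreated, while the later arrays were 1.17-fold to 1.48-fold above either control. Ranked on its lesser difference from a control, Cd14 was 76th from the top of 3667 genes on the early array.

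The second Cd14 probe set had the same order on the early side and a smaller difference. It read 722 early, 405 at intermediate times and 382 late, against 415 after sham instillation and 364 in untreated lung. The early value was 1.74-fold above sham and 1.98-fold above untreated, under the 2-fold rule, and the intermediate and late values lay between the controls. So the brighter probe set placed all 3 exposed arrays above both controls, and the other placed the early array alone above both.

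The early call of Cd14 rests on the probe set and on the scaling. With the brighter probe set the smaller log2 difference was 1.10 after median scaling. It was 0.97 on the deposited scale, 0.91 when arrays were set to their 75th percentile and 0.93 under quantile normalization, and these 3 miss the threshold of 1. The direction was the same in each. The 5′ to 3′ ratios were highest on the early array too, and their part in the Cd14 difference was not tested.

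Against the early array, the brighter Cd14 probe set was 0.549-fold at intermediate times and 0.608-fold late, and the second was 0.562-fold and 0.530-fold. Of all genes, 3.16% at intermediate times and 3.79% late were at least 2-fold below early, and Cd14 was not among them by either probe set. Sham was 1.13-fold above untreated by the first and 1.14-fold by the second.

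Around Cd14, 4 genes of lipopolysaccharide sensing were measured of 18 listed, and 1 of them was called higher on the early array. That was Nfkbia, the inhibitor of NF-kB that NF-kB itself induces, at 7182, 4503 and 3957 at the 3 exposure times in order, against 3279 (sham) and 2552 (untreated). It was 2.19-fold and 2.81-fold above the controls early and under 2-fold later, with scalings to the 75th percentile or by quantiles under 2-fold early too. Its second probe set read 5754, 2120 and 1971 on the exposed arrays, against 2013 (sham) and 1339 (untreated). The 4 genes had a median log2 difference from the averaged controls of 0.44 early, 0.10 intermediate and 0.09 late, against -0.01, 0.09 and 0.07 for all genes. Tlr4, the signalling partner of Cd14, was named after its values were seen: it read 482, 452 and 430 on the exposed arrays, against 423 (sham) and 381 (untreated), and passed nowhere.

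**Figure D2:**
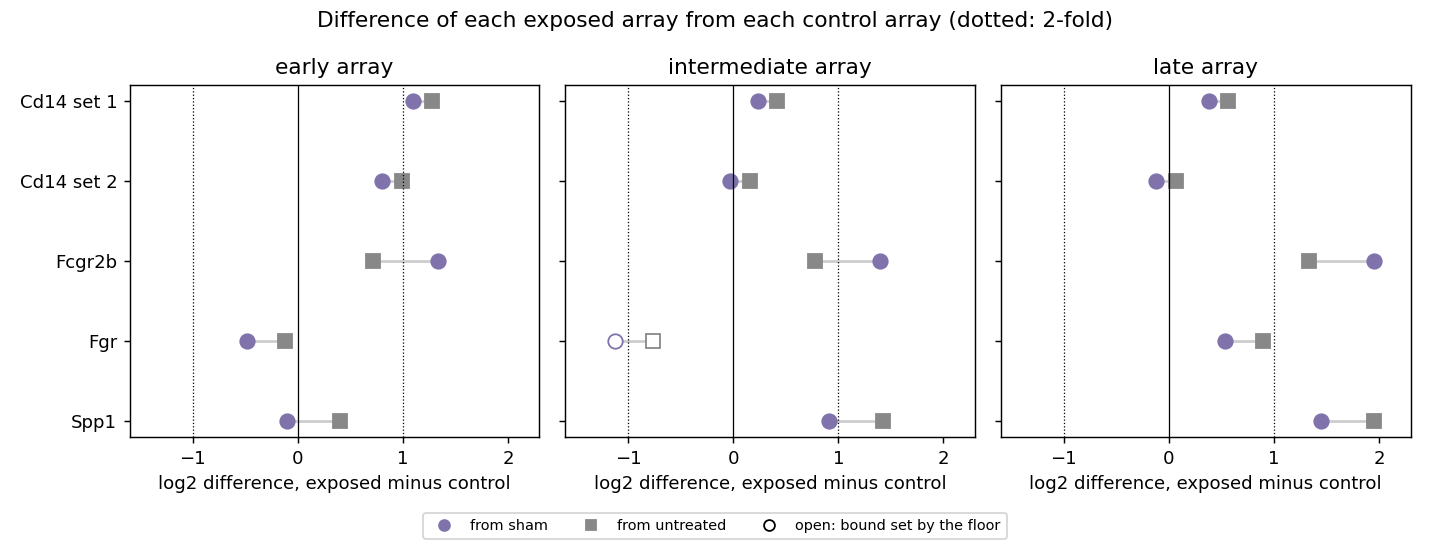
Log2 difference of each exposed array from the sham array (circles) and from the untreated array (squares) for the 5 probe sets, 1 panel per exposed array, with 2-fold as dotted lines and open symbols where the floor makes the difference a bound. Cd14 lies to the right on the early array, Fcgr2b lies to the right on all 3 arrays and Spp1 moves right with time, while Fgr lies left of 0 on the early and intermediate arrays and right of it on the late array.

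Fcgr2b, the inhibitory IgG receptor, was above both controls at every time and highest late. It read 925, 963 and 1417 early, at intermediate times and late, against 367 after sham instillation and 564 in untreated lung. No exposed value lay within the range of the controls. Against sham it was 2.52-fold, 2.63-fold and 3.87-fold, and against untreated 1.64-fold, 1.71-fold and 2.51-fold, so that the late array alone passed the rule. Late Fcgr2b ranked 9th from the top of 3667 genes.

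The 2 controls differed for Fcgr2b more than for the other 3 genes, and in the other direction. Sham was 0.650-fold of untreated for Fcgr2b, whereas it was above untreated for Cd14, Fgr and Spp1. None of the 4 differed by 2-fold between the controls, where 1.55% of all genes were at least 2-fold higher and 1.61% at least 2-fold lower on the sham array. The early and intermediate values of Fcgr2b pass 2-fold against sham alone, as did 4.31% and 2.37% of all genes there, and not against untreated alone. Between exposed arrays the late value was 1.53-fold of the early and 1.47-fold of the intermediate value.

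Fc gamma receptor genes are close paralogs, and the part of cross-hybridisation in the single Fcgr2b probe set was not tested. Another 2 probe sets name several Fc gamma receptor genes each and were left unnamed, and whether Fcgr2b is among those names is not given here. Of 23 other Fc receptor and signalling genes listed, 13 were measured and 0 were called in either direction on any exposed array. Their median log2 difference from the averaged controls was -0.15 early, 0.04 intermediate and 0.09 late, against -0.01, 0.09 and 0.07 for all genes. The neonatal Fc receptor Fcgrt, which carries IgG across cells, read 6135, 7029 and 8536 on the exposed arrays, against 8516 (sham) and 8163 (untreated). Its 2 dimmer probe sets were lowest on the intermediate array instead, at 3977, 2696 and 3726, against 4401 (sham) and 4470 (untreated), and at 2250, 1177 and 1573, against 2108 (sham) and 1819 (untreated). Plcg1, a phospholipase downstream of receptor kinases, read 3860, 5063 and 4325, against 4401 (sham) and 3691 (untreated). Syk, the kinase that binds the phosphorylated Fcer1g chain, was named after its values were seen and read 824, 1179 and 1219, against 1060 (sham) and 1147 (untreated). The high-affinity IgE receptor subunits Fcer1a and Ms4a2, which pair with Fcer1g on mast cells, were under the floor on all 5 arrays.

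Cells other than macrophages can carry Fcgr2b. The 1 measured B cell marker, Cd79b of the B cell receptor, read 531, 510 and 362 on the exposed arrays, against 487 (sham) and 816 (untreated). Of 9 listed mast cell markers 8 were named on the arrays and 5 were above the floor on some array. The mast cell proteases Tpsb2 (760, 697 and 805, against 710 in sham and 602 in untreated lung) and Cma1 (443, 642 and 687, against 507 in sham and 550 in untreated lung) were under 2-fold on every exposed array, and 0 of the 5 were called. The summed scaled intensity of the 8 was 2177, 2059 and 2371 on the exposed arrays, against 2214 (sham) and 1810 (untreated). The part of B cells and mast cells in the Fcgr2b values was not tested.

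Fgr, the myeloid Src family kinase, was the one of the 4 that lay on both sides of the controls. It read 269 on the early array, 117 on the intermediate array, which is under the floor, and 545 on the late array, against 377 after sham instillation and 294 in untreated lung. The early value lay a little under both controls, the intermediate value well under both and the late value above both. The intermediate array was at least 2.19-fold below sham and at least 1.70-fold below untreated. The late array was 1.44-fold over sham and 1.86-fold over untreated, so neither passed. With the floor lowered to the 20th percentile the intermediate array passed as lower, with a smaller log2 difference of -1.33. Raised to the 60th percentile, the floor left the early and intermediate differences at 0 and the late one at 0.25. It then lay above both controls and above the early and intermediate values, so a value below the controls could not appear.

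The contrast of Fgr lay between the later times. Late was at least 3.16-fold above intermediate, where 0.654% of all genes were at least 2-fold higher, and 2.02-fold above early, where 1.77% were. The intermediate array was the one with the lowest 5′ to 3′ ratios, and their part in its Fgr value was not tested. Of 7 other Src family kinases listed 3 were measured, and 0 were called on any exposed array. Lck, the kinase of T cell receptors, read 1662, 1882 and 1030 on the exposed arrays, against 1460 (sham) and 1765 (untreated). Fyn read 1811, 1342 and 1587, against 1377 (sham) and 1631 (untreated). Lyn, a kinase of B cells and myeloid cells named after its values were seen, read 1408, 566 and 720, against 945 (sham) and 592 (untreated).

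Spp1, osteopontin, was near the controls early and higher at each later time. It read 613, 1244 and 1799 early, at intermediate times and late, against 660 after sham instillation and 463 in untreated lung. The early value lay between the controls. The intermediate array was 1.89-fold over sham and 2.69-fold over untreated, just under the rule, while the late array was 2.72-fold and 3.88-fold above them. Late Spp1 ranked 6th from the top of 3667 genes. Sham was 1.43-fold above untreated, a smaller difference than that of the intermediate or late array from sham.

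Without the control arrays, Spp1 at intermediate times was 2.03-fold over its early value, and late Spp1 was 2.94-fold over it. At least 2-fold over early were 2.07% of all genes at intermediate times and 1.77% late. Late was 1.45-fold above intermediate. Such folds also set the array of highest 5′ to 3′ ratios against the others, and the part of this ratio was not tested.

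Osteopontin binds integrins and Cd44 and is cut by several proteases. Of 19 genes listed around it 9 were measured, and 0 were called on any exposed array, where 2.54%, 0.873% and 0.600% of all genes were called higher, with median log2 differences of 0.17 early, 0.35 at intermediate times and 0.19 late, against -0.01, 0.09 and 0.07 for all genes. The integrin subunit Itgb1 read 16690, 18390 and 17570, against 13920 (sham) and 14510 (untreated), and was 1.15-fold to 1.32-fold above the controls on each exposed array. Acp5, the tartrate-resistant phosphatase of osteoclasts and macrophages, read 1849, 1719 and 2140, against 2289 (sham) and 2284 (untreated), and lay under both controls on each. Cd44, a hyaluronan receptor that also binds osteopontin and was named after its values were seen, read 1374, 1210 and 1219, against 859 (sham) and 1041 (untreated). Vdr, the vitamin D receptor and a transcriptional activator of Spp1, was also named after its values were seen. It read 284, 441 and 432, against 247 (sham) and 199 (untreated), which was 1.79-fold and 2.22-fold above the controls at intermediate times and 1.75-fold and 2.17-fold late.

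**Figure D3:**
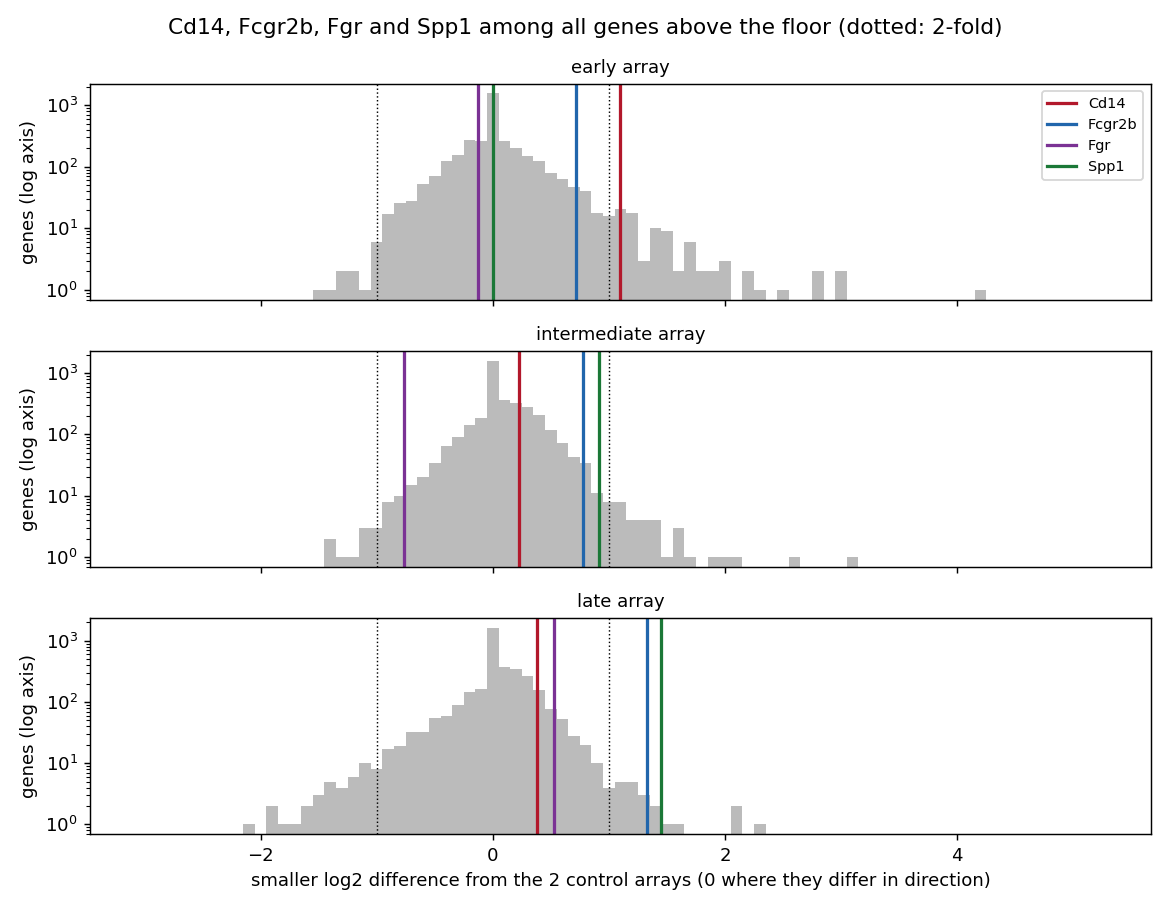
Number of genes (log axis) by their lesser log2 difference from the controls, taken as 0 where the 2 differences have opposite signs, for 3667 genes on each exposed array, with 2-fold as dotted lines. Coloured lines mark Cd14 at 1.10 early, Fgr at -0.77 on the intermediate array, where the floor makes the difference a bound, and Fcgr2b at 1.33 and Spp1 at 1.45 late.

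Other macrophage and monocyte markers were measured for 13 of 29 listed genes. Of them 1 was called higher early, 1 at intermediate times and 2 late, and 0 lower, where 2.54%, 0.873% and 0.600% of all genes were called higher, and their median log2 differences were -0.03, 0.37 and 0.44, against -0.01, 0.09 and 0.07 for all genes. On the late array 10 of the 13 lay above both controls by any amount, against 5 early and 6 on the intermediate array. The share of all genes above both by any amount was not counted, so these counts have no background. Of the 10 lung tissue markers 5 early, 3 at intermediate times and 6 late lay above both controls. Of the 13 Fc receptor and signalling genes 1, 5 and 5 did. The late median of all genes was itself 0.1 above sham (log2) after median scaling. Mmp12, the macrophage elastase, read 381, 749 and 822 on the exposed arrays, against under the floor in sham lung and 190 in untreated lung. It was 2.01-fold above untreated early, 3.94-fold on the intermediate and 4.33-fold on the late array. Its early call was absent with each of the other 3 scalings. Ctsk, a lysosomal cysteine protease, read 255, 393 and 709, against 216 (sham) and 333 (untreated), and was called late, 3.28-fold and 2.13-fold above the controls. With the floor at the 60th percentile 0 of these markers were called on any array. Both control values of Mmp12 and of Ctsk lay under that floor, so their folds there are bounds and do not show smaller differences.

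The level of the whole macrophage list also differed between arrays. The summed scaled intensity of its 16 genes named on the arrays was 92870 early, 117900 at intermediate times and 127000 late, against 105900 after sham instillation and 93010 in untreated lung, with 12 or 13 genes above the floor. The sum was thus highest late, where Fcgr2b, Fgr and Spp1 were highest, and on the early array, where Cd14 was highest, it was level with untreated lung and below sham. A sum highest late was not particular to macrophage markers. The sum of the 10 lung tissue markers was 205100, 242800 and 245000, against 214800 (sham) and 201300 (untreated). Much of it came from the surfactant protein genes, Sftpc among them. The median log2 differences of these lists were less alike. They were 0.10, -0.01 and 0.25 for lung tissue markers, against -0.03, 0.37 and 0.44 for macrophage markers. Lyz2, the macrophage lysozyme, named after its values were seen, made up much of the macrophage sum, at 44780, 65140 and 64170, against 52970 (sham) and 48270 (untreated). The defining markers Csf1r, Itgam and Ccr2 were under the floor on all 5 arrays. How far macrophage content accounts for the values of the 4 genes was not tested.

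Neutrophils also carry Cd14 and Fgr, and their measured markers did not share a single time course. Of 15 listed genes 4 were measured, of which 3 were called higher early, 2 at intermediate times and 1 late, where 2.54%, 0.873% and 0.600% of all genes were. Their median log2 differences were 1.23, 1.12 and 0.51, against -0.01, 0.09 and 0.07 for all genes. The counts depend on the scaling: early calls were 1 with values as deposited and 2 with 75th percentile scaling or quantile normalization, and intermediate calls were 1 with each of these. S100a8, a calcium-binding protein of granulocytes, read 2121, 1311 and 787, against 816 (sham) and 539 (untreated). Its partner S100a9 read 2850, 2737 and 1841, against 1339 (sham) and 980 (untreated), and lost both its early and its intermediate call under each of the other 3 scalings. Padi4, a peptidylarginine deiminase of granulocytes, read 957, 1432 and 990, against 413 (sham) and 458 (untreated), and was called on all 3 arrays, though with values as deposited its early difference fell just under 2-fold. S100a8 and S100a9, like Cd14, were highest on the early array, while Fgr was lowest on the intermediate array, on which Padi4 was highest. The summed intensity of the 7 genes named on the arrays was 30410, 43240 and 40630 on the exposed arrays, against 33260 (sham) and 30190 (untreated). Most of it came from Alpl, which other lung cells express too and which was named after its values were seen. Alpl read 24230, 37660 and 36950, against 30540 (sham) and 28120 (untreated), and so lay under both controls early. The neutrophil markers Cxcr2, Mmp8 and Defa5 were under the floor throughout. The part of neutrophils in the values of Cd14 and Fgr was not tested.

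**Figure D4:**
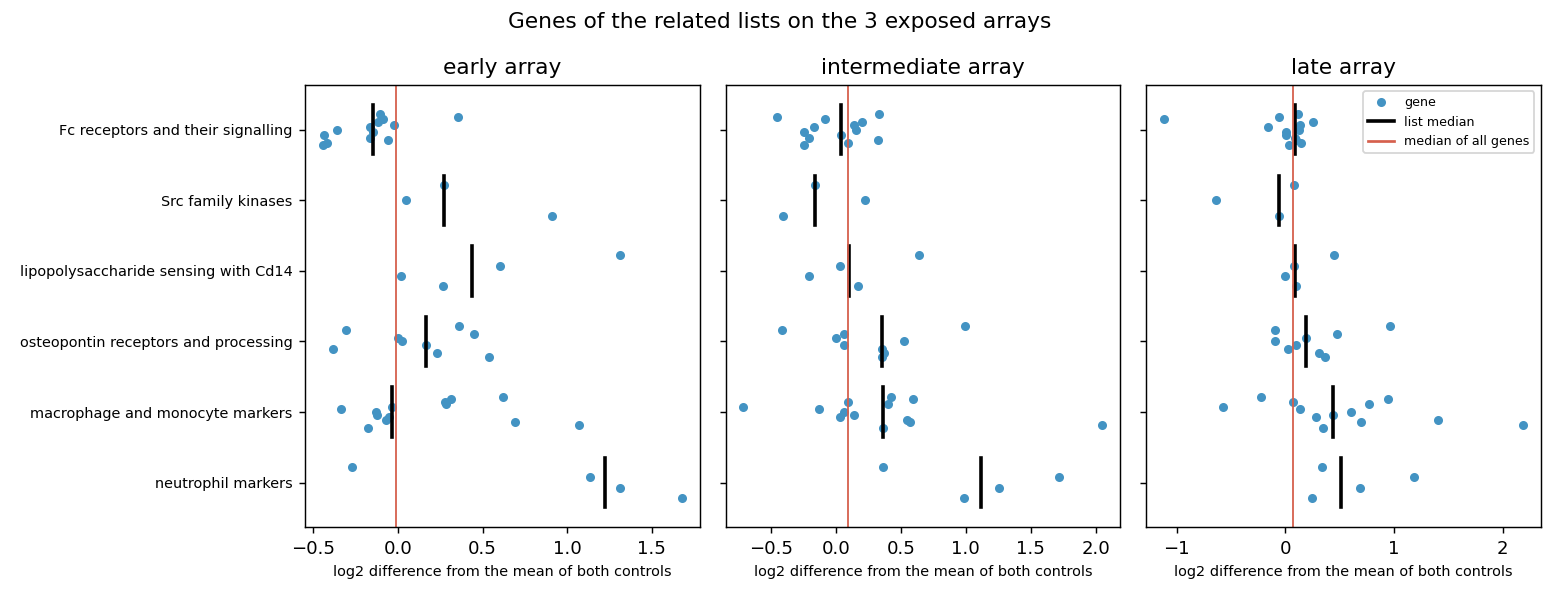
Log2 difference of each exposed array from the mean of both controls for the genes of 6 lists (points), with the list median as a black bar and the median of all genes as a red line; Cd14, Fcgr2b, Fgr and Spp1 are left out. Neutrophil markers have medians of 1.23 early, 1.12 at intermediate times and 0.51 late, and macrophage markers of -0.03, 0.37 and 0.44.

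Exposure averaged over the 3 times was also fitted across all 3667 genes with limma, as 3 exposed against 2 unexposed arrays. The fit called 0 genes (0%) at an adjusted p under 0.05, and 256 genes had an unadjusted p under that value, so it separates no gene from the spread between these arrays, of which differences between times are part. Among the listed relatives, Mmp12 had a log2 difference of 1.77 ± 0.36 (SE) and S100a9 of 1.09 ± 0.26, both with an adjusted p of 0.61 in limma, and each was higher on 3 of 3 exposed arrays. No p-value is given for Cd14, Fcgr2b, Fgr or Spp1, which were chosen on these arrays.

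The genes with the nearest profiles were found among 2780 other genes above the floor on all 5 arrays, by the root mean square distance between log2 profiles centred on their means. Nearest to Cd14 were the galactosyltransferase B4galt1 (distance 0.087), the glutamate transporter Slc1a1 (0.122) and the cytokine Il1a (0.130), against a median distance of 0.50 over all genes compared. Il1a read 1122, 506 and 533 on the exposed arrays, against 430 (sham) and 366 (untreated). Nearest to Fcgr2b were the interferon-induced chemokine Cxcl10 (0.163), the fatty acid transporter Slc27a2 (0.207) and the lysosomal membrane protein Lamp2 (0.270), with a median of 0.66. Cxcl10 read 334, 332 and 510, against 173 (sham) and 227 (untreated), and so shared with Fcgr2b the low sham and the high late value. The sham value of Cxcl10 lay just above the floor of 172.53.

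Nearest to Spp1 were the acidic chitinase Chia (0.226), the histone chaperone Asf1b (0.266) and the topoisomerase Top2a (0.268), with a median of 0.71. Chia read 5829, 12270 and 11580 on the exposed arrays, against 6249 (sham) and 4170 (untreated), and was as high on the intermediate as on the late array, unlike Spp1. Nearest to Fgr were the acetylcholine receptor subunit Chrnb1 (0.215), the RNA-editing enzyme Apobec1 (0.218) and the olfactory receptor Or8g20b (0.218), with a median of 0.61. All 3 were dim, between 181 and 496 in scaled intensity, and highest on the late array. Fgr entered with its intermediate value set to the floor, and the genes compared lay above the floor on all 5 arrays. These genes are therefore nearest to the floored profile of Fgr. The profiles share the same 5 arrays and their scaling, and likeness over 5 points is a description.

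**Figure D5:**
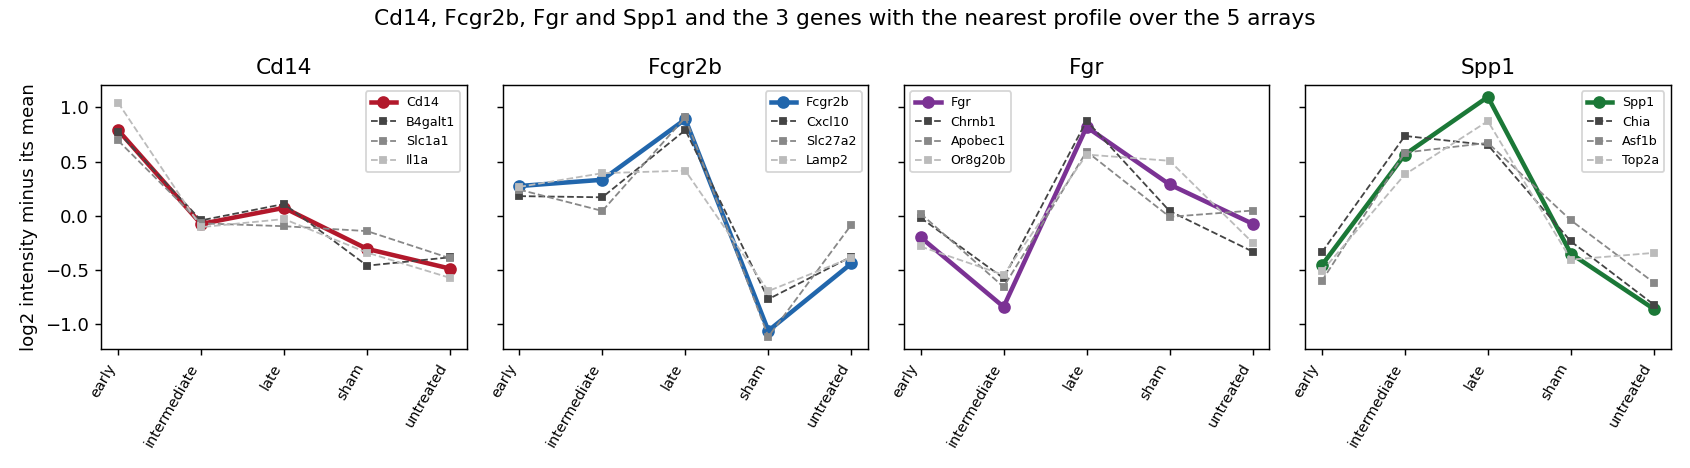
Log2 scaled intensity minus its mean over the 5 arrays for Cd14, Fcgr2b, Fgr and Spp1 (coloured lines) and the 3 genes nearest to each (grey dashed lines). Cd14 peaks on the early array together with B4galt1, Slc1a1 and Il1a, and Fcgr2b and Cxcl10 share their lowest value on the sham array, where Cxcl10 is just above the floor. Fgr is drawn at the floor on the intermediate array.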

How the data were processed

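For each array the deposited table gives a linear intensity for 8799 probe sets, and the labels do not say how the authors computed it. Trimmed by 2% at both ends, the array means ran from 1001.38 to 1001.63, which shows scaling before deposit. Leaving out 59 controls, used for 5′ to 3′ ratios alone, kept 8740. The platform annotation gave 1 symbol to 7006 probe sets, several to 308 and none to 1426, and the last 2 kinds stayed unnamed. Where a gene had several probe sets, the one brightest on average (log2) stood for it, a choice the exposed arrays enter. Folds against a value under the floor are bounds and carry "at least". Of the 5 listed genes, all probe sets with 1 symbol were named. Also named were up to 4 called genes of each list (or the 2 brightest where none was called) and the 3 nearest profiles. Exceptions are marked. The genes and lists were chosen with earlier results of these data known. limma 3.58.1 (lmFit and eBayes, Benjamini-Hochberg adjustment) in R 4.3.3 was run on log2 values, and Python 3.11.15 did the rest; the steps were tested on simulated data. Each group has 1 array, and p-values reflect no more than array-to-array spread, which may be technical. Alternatives were 3 scalings, 2 floors, 2 folds, each control alone, the choice of probe set and leaving out each array in the limma fit.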

Additional observations from a re-analysis of the deposited data

Results flagged for a closer look

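Fgr was set apart by exposed arrays that lay on opposite sides of both controls, with the floor at the 40th percentile. By the smaller of the log2 differences from sham and untreated, it was -0.12 on the early array and -0.77 on the intermediate array, where the floor bounds the value, against 0.53 on the late array. With the floor at the 60th percentile these values were 0, 0 and 0.25. That floor lay above both controls and above the early and intermediate values, so it cannot show whether an exposed array lay below the controls. Lowered to the 20th percentile, the floor gave -1.33 on the intermediate array, which passed as lower. At the 40th percentile neither direction passed against both controls, but the intermediate bound does not show a difference under 2-fold. Each value is from 1 array, and the difference between times was not tested.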

How the results depend on the processing

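The calls of Fcgr2b and Spp1 on the late array held under each of the 3 other scalings. Their smaller log2 differences there were 1.25, 1.33 and 1.34 for Fcgr2b and 1.30, 1.32 and 1.33 for Spp1. Single controls and the choice of probe set could not end these calls. A call needs both controls, and each gene has 1 probe set. The 2 other floors left the smaller differences at 1.33 and 1.45. Over all settings they ran from 1.25 to 1.95 and from 1.30 to 1.96. Both calls ended at 3-fold, which left 0 of the 4 genes called early and 0 late. The early call of Cd14 ended with values as deposited, 75th percentile scaling and quantile normalization (0 genes called each) and with its second probe set (0.80). No difference of the 4 genes that was called changed sign. At 1.5-fold 2 of the 4 were higher early, and 2 higher and 1 lower on the intermediate array. Against sham alone 2 were higher early, and 1 higher and 1 lower on the intermediate array; against untreated alone 1 was higher there. With the floor at the 20th percentile 1 was lower there (Fgr). Over all genes, given as higher and lower on the early, intermediate and late arrays, the 20th percentile floor gave 146 and 66, 103 and 60, and 92 and 93; the 60th percentile floor 53 and 3, a lower count of 0, and 12 and 21; 3-fold 23 and 0, 9 and 0, and 4 and 7; 1.5-fold 251 and 109, 174 and 58, and 112 and 127; sham alone 158 and 68, 87 and 59, and 74 and 84; untreated alone 148 and 75, 88 and 34, and 64 and 98. Values as deposited gave 18 lower early, and 21 higher and 14 lower on the intermediate array, and 75th percentile scaling 21 lower early and 13 on the intermediate array. Sham against untreated had 57 genes higher and 59 lower, 288 and 227 with the low floor and 9 and 17 with the high one. The causes of these changes were not tested, except that a lower floor, a smaller fold or a single control lets more genes pass by construction. After median scaling the median of all genes lay 0.13 above sham on the intermediate array and 0.10 on the late array (log2), and 0 there with the other scalings, while 75th percentile scaling put the early median at -0.13. limma called 0 genes in every fit, with 200 to 444 genes at an unadjusted p under 0.05, the highest without the early array. No paired analysis was possible because each group has 1 array. Signal near the floor limits Fgr, and no detection calls were used here.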

Other observations

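T and natural killer cell markers were measured for 9 of 13 listed genes, and 0 were called on any exposed array, with median log2 differences from the controls of -0.02 early, -0.20 at intermediate times and 0.06 late, against -0.01, 0.09 and 0.07 for all genes. The T cell receptor chains Cd3d (515, 635 and 629 on the exposed arrays, against 549 after sham instillation and 707 in untreated lung) and Cd3g (396, 408 and 494, against 545 in sham and 568 in untreated lung) were under 2-fold on each. Cav1, a protein of caveolae in endothelium and type 1 epithelium, was the lung tissue marker called in both directions. It read 2655 early, 317 at intermediate times and 535 late, against 808 after sham instillation and 783 in untreated lung. Its intermediate call ended with the floor at the 60th percentile, where the smaller log2 difference was -0.77. That is a bound, since the intermediate value lay under this floor. Cav1 was highest on the array of highest 5′ to 3′ ratios and lowest on that of the lowest. The part of this ratio was not tested.

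Other probe sets of the genes nearest in profile did not all share it. A second Il1a probe set read 707, 356 and 235 on the exposed arrays, against 338 (sham) and 244 (untreated), and a second Slc1a1 probe set 694, 323 and a value under the floor, against 233 (sham) and 174 (untreated), so both kept the early peak of Cd14. A second Lamp2 probe set read 1418, 2014 and 1680, against 1633 (sham) and 1503 (untreated), and another 1866, 1569 and 1523, against 1312 (sham) and 1271 (untreated), and neither had the late peak or the low sham value of Fcgr2b. A second Top2a probe set read 255, 244 and 299, against 184 (sham) and 217 (untreated), and was highest late, as Spp1 was, without its low early value.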
